A study of Homo sapiens with 8 samples.

Results

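Lysosome and autophagy genes were followed as a set of 42 genes, found by symbol among the 26235 Entrez genes with counts. The set held 15 lysosomal hydrolases, 6 lysosomal membrane and cholesterol export proteins, 3 MiT/TFE transcription factors, 4 subunits of the proton pump and 14 genes of the autophagy machinery. All 42 symbols were found, and 41 genes passed the filter on low counts. MAP1LC3A, which encodes a form of the autophagosome protein LC3, did not pass. It had 2 and 0 counts with E2, 0 and 0 with PPT, 3 and 0 with DPN, and 0 and 0 in Control cells, so no fold change is given for it.

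Lysosomes are acidic compartments in which proteins, lipids and glycans are broken down by hydrolases, and a proton pump in their membrane keeps them acidic. In autophagy, a double membrane closes around cell contents with proteins of the LC3 and GABARAP family attached to it, and then fuses with the lysosome. TFEB, TFE3 and MITF are related transcription factors known for binding E-box motifs near the start of many lysosomal genes. In liver cells this system is known for turning over lipid droplets, glycogen and mitochondria.

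HepG2, a human liver cancer line, was starved in 0.1% FBS for 16 h and then treated for 48 h. The groups were E2, the steroid estrogen 17β-estradiol, PPT, a nonsteroidal agonist selective for ERα, DPN, a nonsteroidal agonist selective for ERβ, and Control cells that got the vehicle DMSO. PPT and DPN are together called the selective agonists here. Each compound was given at 1 µM, and the medium of all groups was free of phenol red with charcoal-stripped serum. 2 libraries per group, 8 in all, held 25103160 to 29670814 counts each. Separate cultures are not described for the replicates, so p-values measure the spread between libraries, which may be technical. Values are CPM, the counts scaled to library size with TMM factors, and a gene passed the test at a Benjamini-Hochberg adjusted p under 0.05 in edgeR's quasi-likelihood test over 15460 genes.

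ESR1, which encodes ERα, had 0 counts in all 8 libraries, where a floor of 3 counts is 0.0967 to 0.134 CPM. ESR2, which encodes ERβ, had 0 to 8 counts per library. All 8 hepatocyte markers on a list were detected in every library, and their summed level was 60886 to 62970 CPM with E2, 32314 to 35474 with PPT, 31633 to 32779 with DPN and 46195 to 47650 in Control cells. With E2, 4 of the 8 were higher than in Control cells (50.0%, against 30.8% of all tested genes) and 2 lower (25.0%, against 31.8%). With PPT, 1 was higher (12.5%, against 22.9%) and 6 lower (75.0%, against 22.8%). With DPN, 0 were higher (against 24.4%) and 7 lower (87.5%, against 24.1%). Among 10 immune cell markers, CD1C had no count and CSF1R and HLA-DRA at most 1 count per library. From 6 to 9 of the 10 were detected per library, and 5 were tested. With E2, 2 of these 5 were higher than in Control cells and 2 lower (against 30.8% and 31.8% of all tested genes). PPT raised 1 and lowered 3 (against 22.9% and 22.8%), and DPN raised 2 and lowered 1 (against 24.4% and 24.1%). The sum over the list, mostly LYZ, was 1506 to 1530 CPM with E2 and 557 to 569 with PPT. It was 1112 to 1152 with DPN and 1193 to 1217 in Control cells. Both sums moved with the treatments, and their part in the results below was not tested. All libraries came from the single line HepG2, so the sums are RNA levels of marker genes and not numbers of hepatocytes or immune cells. In bulk libraries, a change in some of the cells and a change in every cell cannot be told apart.

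The set moved in both directions with every compound, and the members that moved differed by gene and class. With E2, 12 of the 41 tested members were higher than in Control cells (29.3%, against 30.8% of all tested genes) and 19 were lower (46.3%, against 31.8%). PPT raised 16 members (39.0%, against 22.9%) and lowered 10 (24.4%, against 22.8%), and DPN raised 14 (34.1%, against 24.4%) and lowered 10 (24.4%, against 24.1%). Changes in either direction passed for 75.6% of members with E2, 63.4% with PPT and 58.5% with DPN, against 62.6%, 45.7% and 48.5% of all tested genes. With library-size scaling, 10 members were higher and 23 lower with E2, against 22.1% and 43.7% of all tested genes. Members had more counts than most genes, with a median of 81.3 CPM against 16.5 CPM over all tested genes, and more counts make a small change easier to detect. Over the members, the median log2 fold change was -0.15 for E2, 0.04 for PPT and 0.12 for DPN, against -0.0041, 0.0075 and -0.0045 over all tested genes. All 3 comparisons share the same 2 Control libraries.

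Side by side, the most frequent pattern was a fall with all compounds, in 7 members, and 3 members rose with all of them. The share of all tested genes with each pattern was not computed. The pattern counts here therefore describe the members and do not show a trait particular to the set. 4 members, GLA, LAMP3, LIPA and TFE3, were lower with E2 but higher with PPT and DPN. The place of GLA there rests on a DPN call that several settings ended. Another 5 members, ATP6V0D2, BECN1, CTSL, GABARAPL1 and WIPI1, passed with PPT and DPN and not with E2, although BECN1 passed as lower with E2 under library-size scaling (-0.21, adjusted p = 0.0255). A rise that passed with E2 only was seen for ATG14, CTSS, CTSZ, TFEB and ULK2, and a fall that passed with E2 only for ATP6V1A, ATP6V1H, HEXA, MCOLN1 and UVRAG. Under a stricter call, which asks for more than 1.5 on the log2 scale and adjusted p below 0.01, 2 members were higher with E2 (TFEB and CTSS, among 7.15% of all tested genes) and 2 lower (LAMP3 and MAP1LC3B, 2.98%). LAMP3 and ATP6V0D2 were the 2 members higher by this call with PPT (1.9%) and with DPN (1.92%), and 0 were lower (2.86% with PPT, 2.02% with DPN).

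**Figure D1:**
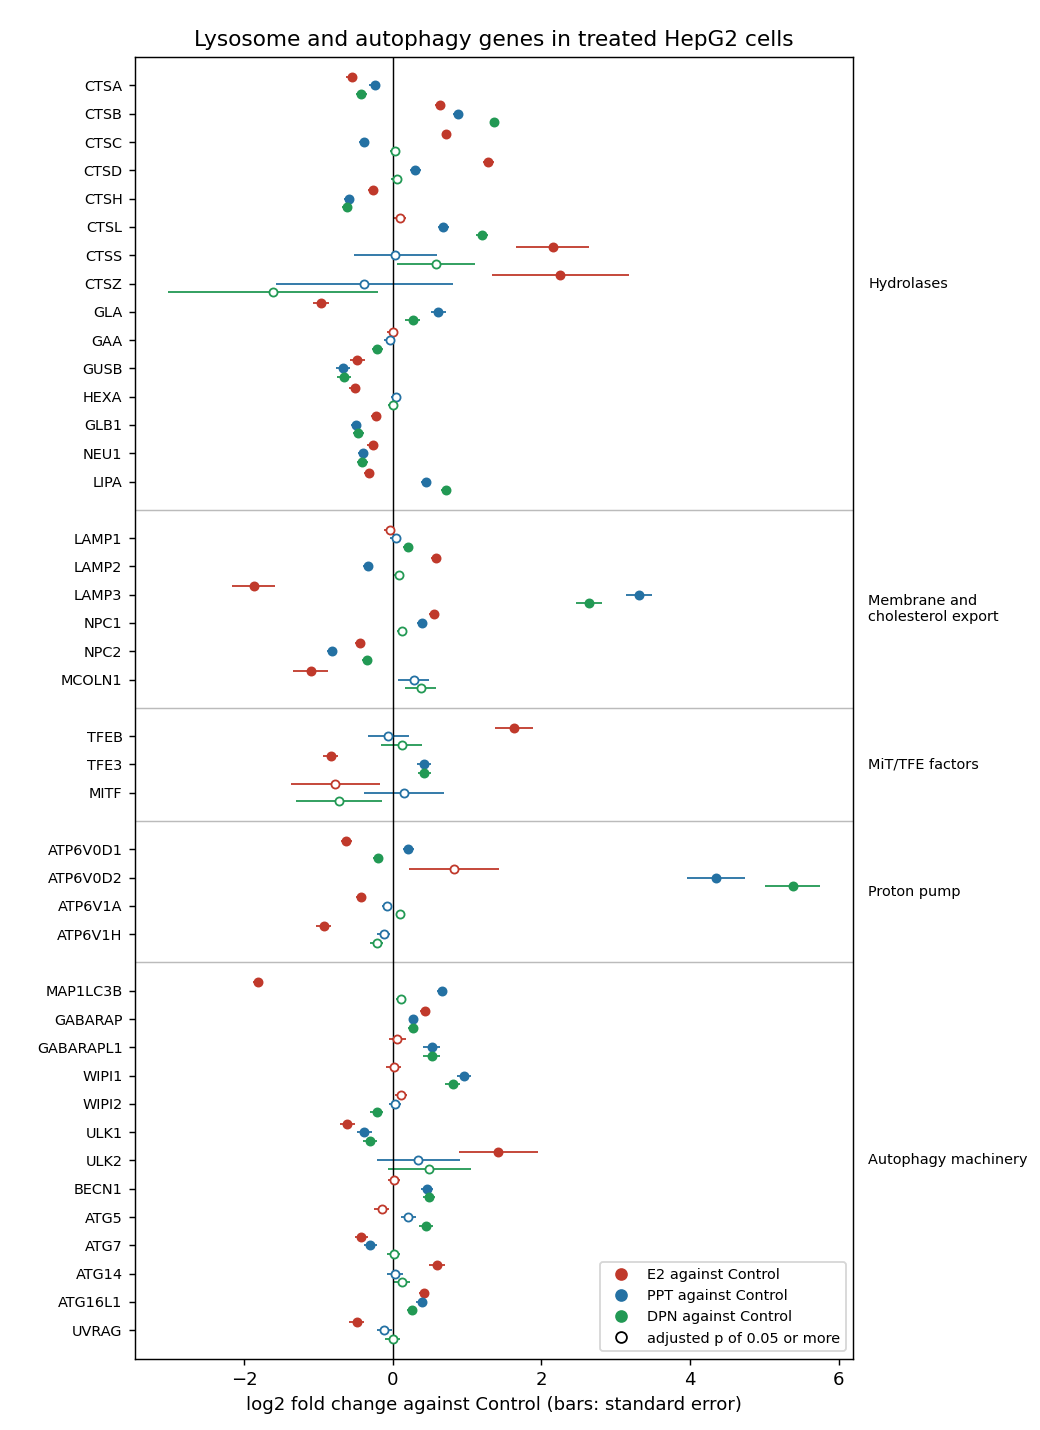
Log2 fold change against Control cells of the 41 tested lysosome and autophagy genes, by class, for E2, PPT and DPN, with filled points for an adjusted p under 0.05 and bars for the standard error. LAMP3 lies at -1.87 with E2, 3.31 with PPT and 2.64 with DPN, and MAP1LC3B at -1.81 with E2.

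Hydrolases moved in both directions. With E2, 5 of the 15 rose (33.3%, against 30.8% of all tested genes) and 8 fell (53.3%, against 31.8%), with a median log2 fold change of -0.22. With PPT, 5 rose (33.3%, against 22.9%) and 6 fell (40.0%, against 22.8%), at a median of -0.04, and with DPN 4 rose (26.7%, against 24.4%) and 6 fell (40.0%, against 24.1%), at a median of 0.0045. CTSB, a cysteine protease (GeneID 1508), rose with every compound. CTSB had 1213 and 1090 CPM with E2, 1348 and 1384 with PPT and 1903 and 1928 with DPN, against 731 and 758 in Control cells. All 6 treated libraries lay above both Control libraries, and the DPN libraries were the highest. The rise of CTSB on the log2 scale was 0.63 ± 0.06 (SE) with E2, 0.88 ± 0.06 under PPT and 1.36 ± 0.06 under DPN (adjusted p = 1.35e-09, 3.92e-12 and 5.75e-16).

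CTSD, the aspartic protease of the lysosome (GeneID 1509, chromosome 11 from 1752752 to 1764573 of GRCh38), followed another order. It had 362.7 and 314.0 CPM with E2, 165.2 and 177.5 with PPT and 142.5 and 145.2 with DPN, against 137.6 and 140.0 in Control cells. The E2 libraries stood above all others, and the DPN libraries were nearest to Control. CTSD rose by 1.29 ± 0.07 with E2 (log2, adjusted p = 1.28e-14) and by 0.30 ± 0.07 with PPT (adjusted p = 9.18e-04), and its value with DPN was 0.05 ± 0.07 (adjusted p = 0.581). In the direct comparisons, CTSD with E2 exceeded its PPT level by 0.98 and its DPN level by 1.23 (adjusted p = 2.68e-12 and 2.92e-14).

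CTSL, another cysteine protease (GeneID 1514, chromosome 9 from 87724051 to 87731469), had the reverse order among the compounds. Its level was 71.8 and 71.9 CPM with E2, 116.4 and 99.4 with PPT and 155.6 and 153.8 with DPN, against 63.8 and 70.7 in Control cells. The PPT and DPN libraries lay above all Control and E2 libraries, without overlap. CTSL rose by 0.68 ± 0.08 with PPT and 1.20 ± 0.08 with DPN (adjusted p = 4.58e-08 and 8.57e-13), and with E2 the difference was 0.10 ± 0.08 (adjusted p = 0.301). Direct comparison placed E2 below DPN by 1.11 (adjusted p = 2.02e-12).

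CTSS and CTSZ were rare. CTSS, a cysteine protease known from antigen presentation, had 40 and 70 counts with E2, 13 and 18 with PPT and 34 and 12 with DPN, against 14 and 18 in Control cells, or 1.79 and 2.95 CPM with E2, 0.476 and 0.603 with PPT and 1.18 and 0.412 with DPN, against 0.451 and 0.610. Its rise with E2 was 2.15 ± 0.49 (adjusted p = 4.6e-04), and the E2 libraries lay above all others, while the DPN libraries were far apart. CTSZ, a carboxypeptidase, had 16 and 10 counts with E2, 1 and 4 with PPT and 1 and 1 with DPN, against 7 and 0 in Control cells, or 0.716 and 0.421 CPM with E2, 0.0366 and 0.134 with PPT and 0.0346 and 0.0344 with DPN, against 0.226 and 0. It passed with E2 at 2.26 ± 0.92 (adjusted p = 0.035). DESeq2 gave adjusted p = 0.156 for this call, and it was also lost without Control replicate 2 (0.332), E2 replicate 1 (0.237), E2 replicate 2 (0.0681) or any PPT or DPN library (0.0542 to 0.0564). Without Control replicate 1 the call remained, but the Control group then has no counts. The exons of CTSZ share 6136 of 19384 bp with the antisense gene NELFCD.

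The other hydrolases, proteases among them, moved by less than 1 on the log2 scale against Control. CTSA, which protects NEU1 and GLB1 from breakdown, NEU1, a sialidase, GLB1, a β-galactosidase, GUSB, a β-glucuronidase, and the aminopeptidase CTSH fell with every compound, by 0.22 to 0.55 with E2, 0.25 to 0.67 with PPT and 0.41 to 0.66 with DPN. Single libraries decided some of these calls, which were lost for GLB1 (adjusted p = 0.0684) and NEU1 (0.0781) with E2 without E2 replicate 2, and for CTSA with PPT without PPT replicate 1 (0.0591). GLA, the α-galactosidase, and LIPA, the acid lipase that splits cholesteryl esters and triglycerides, went the opposite way with E2 from the selective agonists. GLA fell by 0.97 with E2 and rose by 0.61 with PPT and 0.27 with DPN (adjusted p = 2.04e-08, 1.3e-05 and 0.032), and some of its exons overlap the antisense gene RPL36A. The DPN call of GLA was lost with DESeq2 (adjusted p = 0.0555), no filter (0.0527), library-size (0.0544) and upper-quartile scaling (0.058), and without Control replicate 1 (0.157), Control replicate 2 (0.109), DPN replicate 1 (0.0711) or DPN replicate 2 (0.152). LIPA fell by 0.32 with E2 and rose by 0.45 with PPT and 0.71 with DPN (adjusted p = 2.22e-04, 2.96e-06 and 9.96e-10). CTSC, which activates other proteases, rose by 0.72 with E2 and fell by 0.39 with PPT (0.02 with DPN, adjusted p = 0.793). HEXA, a β-hexosaminidase subunit, passed only with E2 (-0.52). GAA, which releases glucose from glycogen, passed with DPN (-0.21, adjusted p = 0.0193), but not without Control replicate 2 (0.127), DPN replicate 1 (0.07) or DPN replicate 2 (0.108), and under library-size scaling it also passed with E2 (-0.23, adjusted p = 0.0098).

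LAMP3 had the widest range among the membrane proteins. It encodes a lysosome-associated membrane glycoprotein known from mature dendritic cells and the unfolded protein response (GeneID 27074, chromosome 3 from 183122215 to 183163839). LAMP3 had 0.671 and 0.421 CPM with E2, 20.7 and 19.1 with PPT and 12.3 and 12.6 with DPN, against 2.03 and 1.97 in Control cells, from 15 and 10 counts with E2, 564 and 572 with PPT and 356 and 367 with DPN, against 63 and 58. No group overlapped another. Against Control, LAMP3 changed by -1.87 ± 0.29 with E2, 3.31 ± 0.17 under PPT and 2.64 ± 0.17 under DPN on the log2 scale (adjusted p = 3.29e-06, 5.03e-15 and 1.04e-12). The log2 difference of E2 from PPT was -5.19 (95% interval -5.64 to -4.73), and that of DPN from PPT was -0.67 (adjusted p = 3.55e-04).

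The other LAMP genes moved less. LAMP1, an abundant glycoprotein of the lysosomal membrane, had 147.6 and 153.9 CPM with E2, 152.9 and 165.9 with PPT and 181.0 and 178.3 with DPN, against 159.7 and 151.4 in Control cells, and the DPN difference passed (0.21 ± 0.07, adjusted p = 0.0122). It was lost without Control replicate 2 (adjusted p = 0.162), DPN replicate 1 (0.0798) or DPN replicate 2 (0.0519), and under library-size scaling LAMP1 passed as lower with E2 (-0.27, adjusted p = 0.00112). LAMP2, whose splice form LAMP2A serves chaperone-mediated autophagy, rose by 0.58 ± 0.07 with E2 and fell by 0.33 ± 0.07 with PPT (adjusted p = 2.66e-08 and 1.82e-04). The counts sum the splice forms of LAMP2.

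MCOLN1 encodes mucolipin, a calcium channel of the lysosome (GeneID 57192, chromosome 19 from 7522624 to 7534009). It had 2.73 and 2.06 CPM with E2, 6.45 and 6.06 with PPT and 5.27 and 8.07 with DPN, against 4.87 and 5.42 in Control cells. Both E2 libraries lay below all others, and the DPN libraries were the farthest apart. MCOLN1 fell by 1.10 ± 0.24 with E2 (adjusted p = 2.17e-04), and the values of 0.28 with PPT and 0.37 with DPN did not pass (adjusted p = 0.282 and 0.135), though DPN passed without DPN replicate 1 (0.65, adjusted p = 0.0199).

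NPC1 and NPC2, the membrane and soluble proteins that export cholesterol from the lysosome, did not move together. NPC1 had 346.2 and 331.3 CPM with E2, 292.1 and 312.2 with PPT and 259.2 and 245.0 with DPN, against 233.3 and 228.8 in Control cells. NPC2 had 131.0 and 124.8 CPM with E2, 96.4 and 100.6 with PPT and 136.1 and 135.1 with DPN, against 170.5 and 175.8. Every treated library was above Control for NPC1 and below it for NPC2. NPC1 rose by 0.55 with E2 and 0.39 with PPT (adjusted p = 3.2e-08 and 1.56e-05, and 0.110 with DPN), while NPC2 was lower with all 3 (-0.44 with E2, -0.81 with PPT, -0.35 with DPN, adjusted p = 2.69e-06, 9.45e-11 and 7.35e-05).

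TFEB and TFE3, related regulators of lysosomal genes, went opposite ways with E2. TFEB (GeneID 7942, chromosome 6 from 41683978 to 41736259) had 6.98 and 5.47 CPM with E2, 1.80 and 2.04 with PPT and 2.11 and 2.23 with DPN, against 1.84 and 2.17 in Control cells. TFE3 (GeneID 7030, chromosome X from 49028726 to 49043410) had 18.1 and 18.9 CPM with E2, 41.9 and 46.6 with PPT and 43.2 and 45.5 with DPN, against 33.5 and 32.6. For both genes the E2 libraries stood apart from all the rest, above them for TFEB and below them for TFE3.

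TFEB rose by 1.63 ± 0.26 with E2 (adjusted p = 3.64e-06), and its values were -0.06 with PPT and 0.12 with DPN (adjusted p = 0.887 and 0.753). TFE3 fell by 0.84 ± 0.10 with E2 (adjusted p = 3.91e-08) and rose by 0.42 with PPT and 0.42 with DPN (adjusted p = 4.66e-04 and 3.76e-04). DPN and PPT differed in TFE3 by 0.0043 (95% interval -0.18 to 0.19). MITF, best known from melanocytes, had 0.492 and 0.379 CPM with E2, 0.989 and 0.670 with PPT and 0.589 and 0.309 with DPN, against 0.580 and 0.915 in Control cells, with overlap between groups and no difference that passed (adjusted p = 0.184 to 0.955 over 6 comparisons). The activity of these factors is set largely by where in the cell they are, which RNA levels do not show.

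Promoters from RefSeq (GRCh38.p14, 250 bases before and 50 after the start) were given for 32 of the 42 members and searched on both strands for CACGTG, the E-box core, and for TCACGTGA, a longer form that contains it. CACGTG was found in 8 members' promoters (25.0%), against 10.0% of the promoters of tested genes and 7.43% of all 27305 promoters, and TCACGTGA in 5 (15.6%, against 1.84% and 1.04%). A match is a description of the letters and no sign that a factor binds there. Stretches of 80 bases are shown for 6 of them, with CACGTG in capitals, because these genes share the motif and moved in different directions with E2, CTSD and ATG14 up, CTSA, MCOLN1 and ATP6V0D1 down and LAMP1 without a change that passed. They read 5′ to 3′ on the gene's strand, at chr11:1763932-1764011 (minus strand) for CTSD, chr14:55411831-55411910 (minus) for ATG14, chr20:45891255-45891334 (plus) for CTSA, chr19:7522544-7522623 (plus) for MCOLN1, chr16:67481174-67481253 (minus) for ATP6V0D1 and chr13:113297010-113297089 (plus) for LAMP1.
CTSD: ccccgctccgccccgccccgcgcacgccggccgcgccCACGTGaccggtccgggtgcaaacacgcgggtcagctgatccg
ATG14: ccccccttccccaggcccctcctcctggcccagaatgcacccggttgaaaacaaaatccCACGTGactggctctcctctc
CTSA: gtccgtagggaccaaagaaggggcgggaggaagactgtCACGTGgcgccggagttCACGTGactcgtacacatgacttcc
MCOLN1: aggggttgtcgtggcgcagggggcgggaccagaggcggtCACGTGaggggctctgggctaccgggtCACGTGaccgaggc
ATP6V0D1: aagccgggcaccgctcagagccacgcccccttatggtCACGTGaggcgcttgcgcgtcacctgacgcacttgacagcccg
LAMP1: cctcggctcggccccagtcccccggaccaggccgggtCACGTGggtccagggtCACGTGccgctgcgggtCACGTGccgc

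Among these 6 promoters the motif started 47 bases before the gene start in CTSD, 59 in ATP6V0D1 and 21 in ATG14. CTSA and MCOLN1 each had a pair of matches within 42 bases of the start, and the promoter of LAMP1 held 6, of which 3 fall in the stretch shown. GAA and NEU1 were the other members with a match, at -0.0007 and -0.27 with E2 on the log2 scale, and NEU1 alone of the pair passed (adjusted p = 0.995 and 2.16e-03). The promoters of TFEB, TFE3 and MITF held no CACGTG in this window.

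Of the proton pump members, 3 of 4 fell with E2 (75.0%, against 31.8% of all tested genes). The summed level of the 4 members was 233.5 and 237.4 CPM with E2, 340.1 and 356.1 with PPT and 345.0 and 345.9 with DPN, against 347.1 and 339.3 in Control cells. ATP6V0D1, a subunit of the membrane sector, and ATP6V1A and ATP6V1H, subunits of the sector that splits ATP, fell by 0.63, 0.43 and 0.93 with E2 (adjusted p = 2.52e-08, 4.07e-06 and 3.61e-09). All 4 members lay lower with E2 than with either selective agonist. With PPT and DPN against Control, ATP6V1A and ATP6V1H did not pass (-0.08 and -0.13 with PPT, 0.10 and -0.22 with DPN), and ATP6V0D1 rose by 0.21 with PPT and fell by 0.20 with DPN (adjusted p = 0.0169 and 0.0209). The PPT call of ATP6V0D1 was lost without Control replicate 1 (adjusted p = 0.0607), Control replicate 2 (0.144) or PPT replicate 1 (0.111), and the DPN call without Control replicate 1 (0.138), Control replicate 2 (0.0544), DPN replicate 1 (0.124) or DPN replicate 2 (0.0659). ATP6V1H passed with DPN in 6 alternatives, library-size (adjusted p = 0.0267) and upper-quartile scaling (0.0263) among them.

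ATP6V0D2, the second form of the same membrane-sector subunit and known from osteoclasts and kidney (GeneID 245972), had few counts in Control cells. It had 0.402 and 0.253 CPM with E2, 4.36 and 3.25 with PPT and 7.97 and 7.56 with DPN, against 0.258 and 0.102 in Control cells. These came from 9 and 6 counts with E2, 119 and 97 with PPT and 230 and 220 with DPN, against 8 and 3. The PPT and DPN libraries lay above all E2 and Control libraries, and those of DPN above those of PPT. The rise was 4.35 ± 0.39 with PPT and 5.38 ± 0.37 with DPN (adjusted p = 4.73e-10 and 2.47e-12), the E2 value of 0.83 ± 0.61 did not pass (adjusted p = 0.242), and DPN exceeded PPT by 1.03 ± 0.24 (adjusted p = 1.34e-03). Per kilobase of exon, ATP6V0D2 had mean levels of 0.111 CPM with E2, 1.29 with PPT and 2.64 with DPN, against 0.0612 in Control cells. The mean levels of ATP6V0D1 on the same scale were higher, at 7.92 with E2, 14.1 with PPT and 10.6 with DPN, against 12.2.

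**Figure D2:**
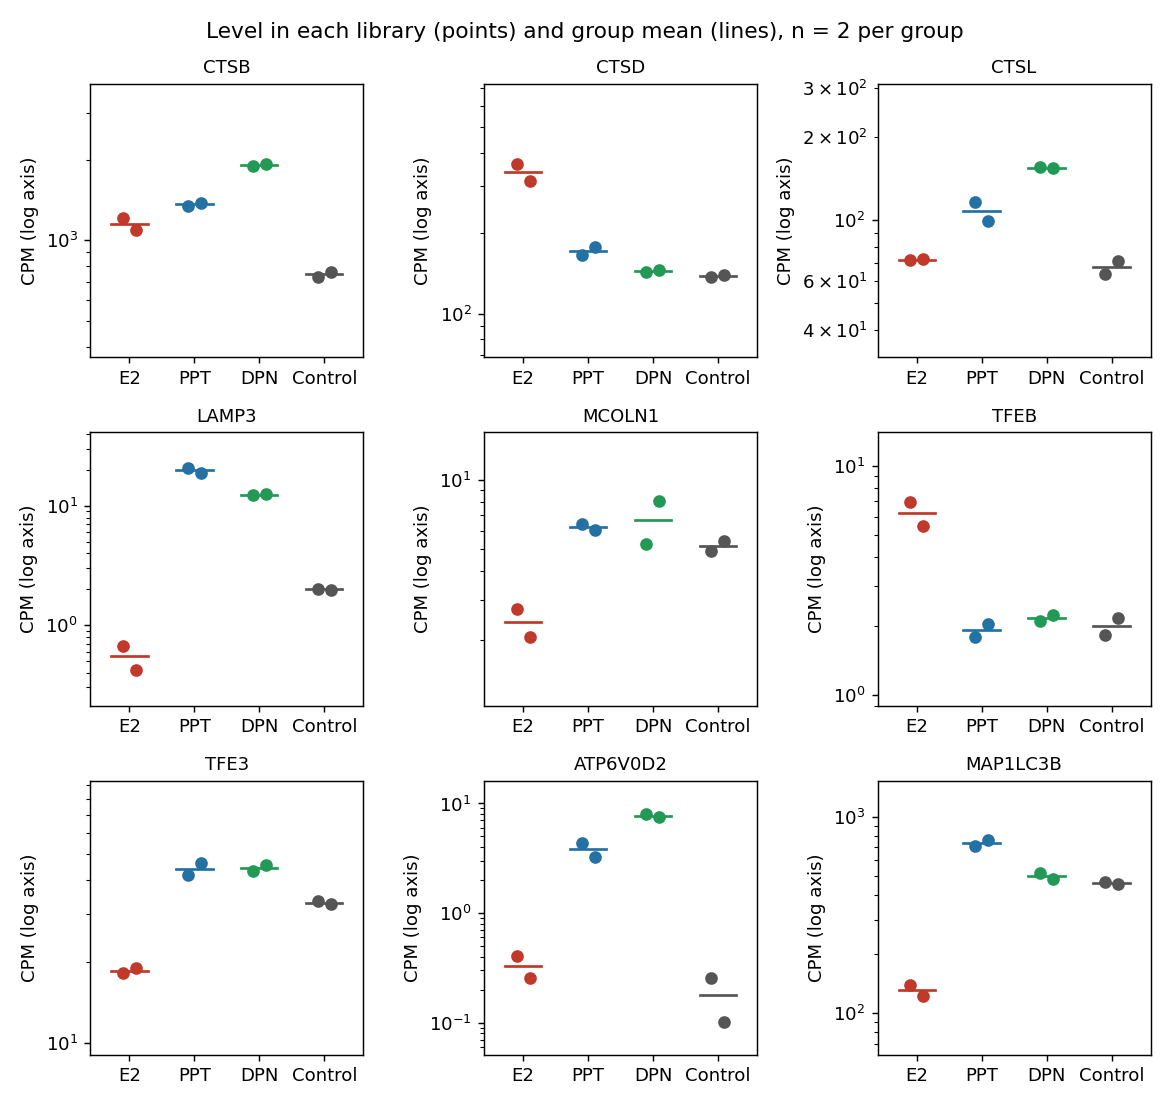
CPM per library on a log axis for 9 members (CTSB, CTSD, CTSL, LAMP3, MCOLN1, TFEB, TFE3, ATP6V0D2 and MAP1LC3B), with groups in the order E2, PPT, DPN and Control, 2 points each and a line at the mean. LAMP3 and ATP6V0D2 are high in the PPT and DPN libraries, and MAP1LC3B is lowest in the E2 libraries at 139.5 and 123.1 CPM.

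MAP1LC3B, the main LC3 gene, showed the change with the smallest p among the members (GeneID 81631, chromosome 16 from 87383953 to 87404779). It had 139.5 and 123.1 CPM with E2, 708.1 and 758.7 with PPT and 516.5 and 484.1 with DPN, against 467.0 and 456.7 in Control cells. The E2 libraries lay far below the others and the PPT libraries above them, without overlap. MAP1LC3B fell by 1.81 ± 0.07 with E2 and rose by 0.67 ± 0.07 with PPT (adjusted p = 5.79e-18 and 4.41e-09), and with DPN the value was 0.12 ± 0.07 (adjusted p = 0.162).

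MAP1LC3B was lower with E2 than with PPT by 2.48 and than with DPN by 1.93 (adjusted p = 5.7e-21 and 1.77e-18), and lower with DPN than with PPT by 0.55 (adjusted p = 3.03e-07). Its near-identical copy MAP1LC3B2 had 32.2 and 27.7 CPM with E2, 122.5 and 144.7 with PPT and 83.2 and 79.4 with DPN, against 79.1 and 80.9, and reads may be split between these genes. Per kilobase of exon, MAP1LC3B had means of 26.1 CPM with E2, 145.6 with PPT and 99.3 with DPN, against 91.7 in Control cells. On this scale it ranked first among the members in Control cells and with PPT, and CTSB ranked first with E2 and DPN, at 109.4 and 181.9. In CPM not divided by length, CTSB was above MAP1LC3B also in Control cells (744.5 against 461.8) and with PPT (1365.8 against 733.4). The order there thus depends on the exon length used.

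GABARAP and GABARAPL1, which also attach to the autophagosome membrane, did not follow MAP1LC3B with E2. GABARAP had 190.6 and 188.0 CPM with E2, 170.1 and 170.5 with PPT and 166.2 and 172.3 with DPN, against 138.7 and 142.6 in Control cells. All treated libraries were above Control, and the log2 rises were 0.43 (E2), 0.28 (PPT) and 0.27 (DPN, adjusted p = 2.23e-06, 9.08e-04 and 1.14e-03). GABARAPL1 rose by 0.52 with PPT and 0.52 with DPN (adjusted p = 4.8e-04 and 4.25e-04) and had 0.06 with E2 (adjusted p = 0.674).

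Of the 13 tested autophagy genes, 4 rose (30.8%) and 4 fell (30.8%) with E2, close to the 30.8% and 31.8% of all tested genes, with a median log2 fold change of 0.01. With PPT, 6 rose (46.2%, against 22.9%) and 2 fell (15.4%, against 22.8%), at a median of 0.28, and with DPN 6 rose (46.2%, against 24.4%) and 2 fell (15.4%, against 24.1%), at a median of 0.26. WIPI1, which binds the phosphoinositide on the forming membrane, had 32.8 and 31.5 CPM with E2, 54.8 and 69.6 with PPT and 57.6 and 54.2 with DPN, against 31.2 and 32.8 in Control cells. It rose by 0.96 with PPT and 0.81 with DPN (adjusted p = 5.37e-09 and 1.27e-07), and its libraries with E2 overlapped those of Control (0.0092, adjusted p = 0.943). WIPI2, of the same family, passed with DPN (-0.22, adjusted p = 0.0295), but not with DESeq2 (0.0594), without Control replicate 2 (0.182) or without DPN replicate 1 (0.274).

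The kinases that start autophagy differed. ULK1 was lower in all treated groups (-0.61 with E2, -0.38 with PPT, -0.31 with DPN, adjusted p = 5.82e-06, 1.78e-03 and 8.45e-03). The DPN call of ULK1 was lost without Control replicate 1 (adjusted p = 0.0971) or DPN replicate 2 (0.0697). ULK2 was rare, with 1.03 and 1.73 CPM with E2, 0.916 and 0.402 with PPT and 0.762 and 0.687 with DPN, against 0.355 and 0.678 in Control cells, and both E2 libraries were above all others. Its rise of 1.42 ± 0.53 with E2 passed at adjusted p = 0.0229 and did not pass with DESeq2 (0.0626), without E2 replicate 2 (0.244) or without Control replicate 1 (0.195).

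BECN1, UVRAG and ATG14 are subunits of the lipid kinase complexes of autophagy. BECN1 rose with PPT (0.46, adjusted p = 2.27e-05) and DPN (0.49, adjusted p = 1.05e-05). UVRAG fell with E2 (-0.49, adjusted p = 2.22e-04), whereas ATG14 rose with E2 (0.59, adjusted p = 2.31e-05). Among the genes that couple LC3 to lipid, ATG16L1 rose with E2, PPT and DPN (0.41, 0.39 and 0.26), ATG5 rose with DPN (0.44, adjusted p = 4.54e-04), and ATG7 fell with E2 and PPT (-0.42 and -0.30). The PPT call of ATG7 was lost without Control replicate 2 (adjusted p = 0.0606) or PPT replicate 2 (0.118), and ATG5 passed with PPT without Control replicate 1 (0.0223) or PPT replicate 1 (0.00746) and as lower with E2 without Control replicate 2 (0.0327) or under library-size scaling (0.00216).

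Compared directly, E2 differed from both selective agonists in more members than the selective agonists differed from each other. The shares of all tested genes had the same order. Against PPT, 12 members were higher with E2 (29.3%, against 30.1% of all tested genes) and 20 lower (48.8%, against 32.1%), or 78.0% against 62.1% in either direction. Against DPN, 14 were higher with E2 (34.1%, against 32.6%) and 21 lower (51.2%, against 31.3%), or 85.4% against 63.9%. With library-size scaling the counts higher and lower were 8 and 24 for E2 against PPT (22.4% and 42.9% of all tested genes), and 9 and 23 for E2 against DPN (24.5% and 40.5%). Leaving out E2 replicate 1 also gave fewer members higher with E2 than with DPN, and a smaller share of all tested genes passed as well. Between DPN and PPT, 10 were higher with DPN (24.4%, against 19.1%) and 8 lower (19.5%, against 18.8%), a total of 43.9% against 37.8% of all tested genes. Without DPN replicate 1, 4 members were lower with DPN, against 13.6% of all tested genes, as CTSA, CTSD, GLA and WIPI2 no longer passed. By the stricter call, E2 exceeded PPT in 2 members (7.85% of all tested genes) and lay below it in 4 (3.03%), and it exceeded DPN in 3 (7.43%) and lay below it in 3 (3.27%). None passed it between DPN and PPT, against 0.957% of all tested genes higher and 0.414% lower with DPN, while 18 passed at an adjusted p under 0.05.

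With DPN, the cathepsins CTSB (0.49), CTSL (0.52) and CTSC (0.41) and the membrane genes LAMP2 (0.42) and NPC2 (0.46) were higher than with PPT, at adjusted p of 5.21e-07 to 1.73e-05. MAP1LC3B (-0.55), LAMP3 (-0.67) and ATP6V0D1 (-0.41) were lower with DPN, at adjusted p of 3.03e-07 to 3.55e-04. For the 23 members that did not pass, a p above the threshold does not show equal levels. E2 lay below both selective agonists, by over 1, in ATP6V0D2 (-3.53 against PPT, -4.56 against DPN), MCOLN1 (-1.39 and -1.48), GLA (-1.58 and -1.24) and TFE3 (-1.26 and -1.26), beside LAMP3 and MAP1LC3B. It lay above both by over 1 in TFEB (1.69 and 1.52) and in the rare genes CTSS (2.12 and 1.57) and CTSZ (2.64 and 3.87). The CTSZ difference between E2 and PPT did not pass with DESeq2 (adjusted p = 0.102).

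**Figure D3:**
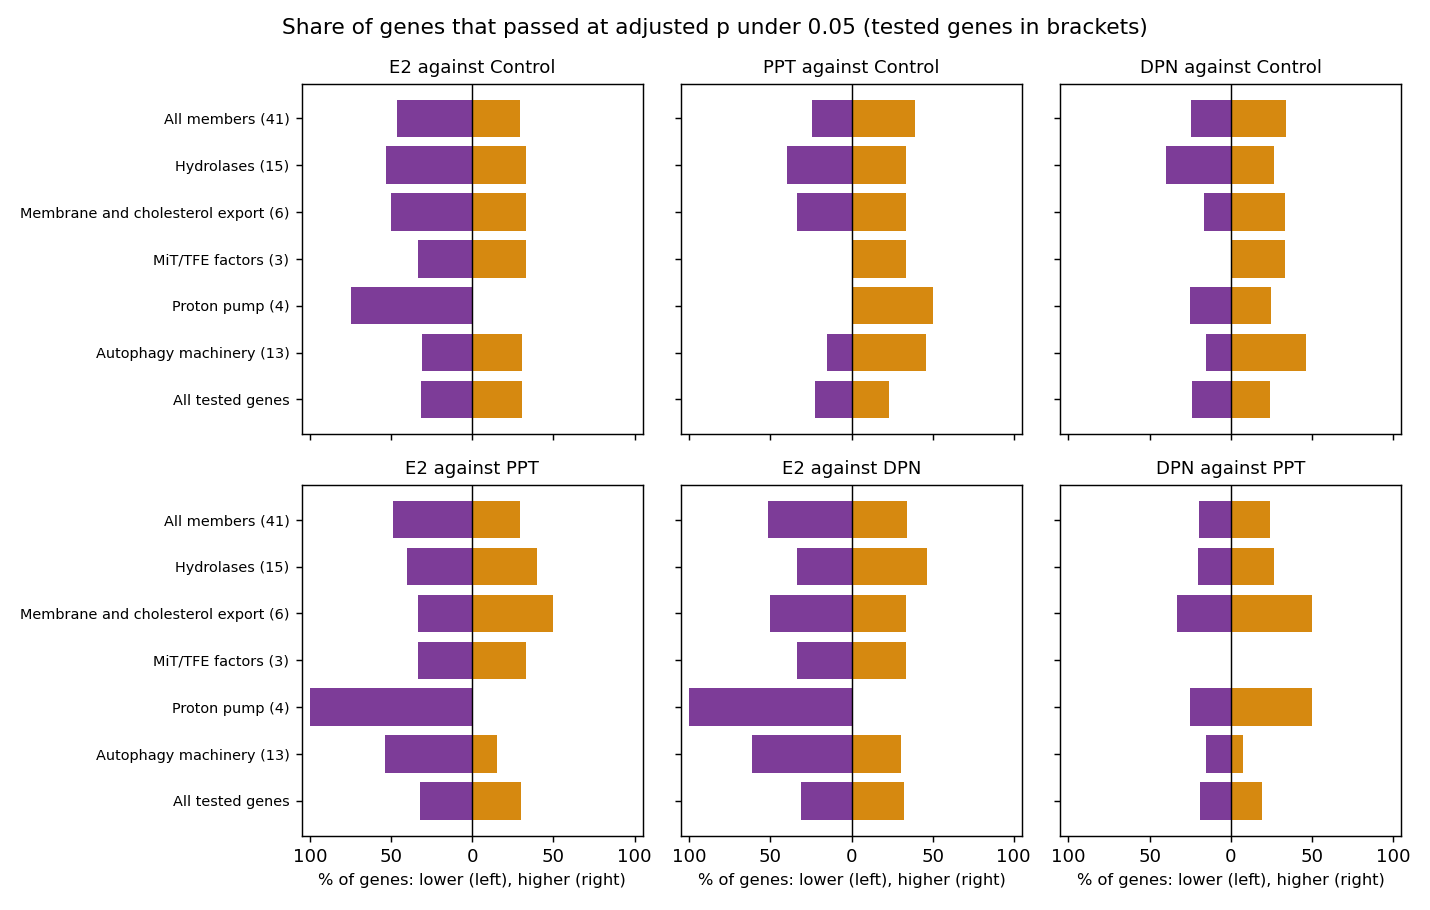
Share of tested genes in each class, in percent, that passed as higher (right) or lower (left) in each comparison, with all tested genes in the bottom row. The proton pump genes are lower with E2 than with either selective agonist in 4 of 4 members, against 32.1% (PPT) and 31.3% (DPN) of all tested genes.

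Other genes of the pathway, 140 tested of 144 listed, had medians of the same sign as the members. Their lists were also chosen with earlier results of these data known, so they are no independent check of the members. With E2, 30 were higher (21.4%, against 30.8% of all tested genes) and 61 lower (43.6%, against 31.8%), at a median log2 fold change of -0.18. With PPT, 57 were higher (40.7%, against 22.9%) and 37 lower (26.4%, against 22.8%), at a median of 0.09, and with DPN 59 were higher (42.1%, against 24.4%) and 24 lower (17.1%, against 24.1%), at a median of 0.13. CTSF, DPP7, GALC and ATP6V1G3 did not pass the filter. The medians over all tested genes were within 0.01 of 0 in these comparisons.

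Of 30 other hydrolases and activators, 6 rose and 16 fell (53.3%, against 31.8% of all tested genes) with E2, where 30.8% of all tested genes rose. With PPT, 9 rose (30.0%, against 22.9%) and 14 fell (46.7%, against 22.8%), and with DPN 13 rose (43.3%, against 24.4%) and 6 fell, where 24.1% of all tested genes fell. IDS, an iduronate sulfatase, was higher with E2 (1.30), PPT (0.42) and DPN (1.06). CTSV, a close relative of CTSL, was lower with E2 (-1.28), PPT (-2.76) and DPN (-2.81) (adjusted p = 7.83e-05, 4.55e-09 and 3.53e-09). ARSB fell by 0.95 and MANBA rose by 0.98 with E2.

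Among 15 other membrane proteins, 2 rose (13.3%, against 30.8% of all tested genes) and 7 fell (46.7%, against 31.8%) with E2. With PPT, 10 rose (66.7%, against 22.9%) and 2 fell (13.3%, against 22.8%), and with DPN 7 rose (46.7%, against 24.4%) and 2 fell (13.3%, against 24.1%). CTNS, the cystine exporter, fell by 0.75 with E2 and rose by 0.92 with PPT (0.24 with DPN, adjusted p = 0.0555). OSTM1, a partner of the chloride transporter CLCN7, fell by 0.54 with E2 and rose by 0.59 with PPT and 1.18 with DPN. CLN3 fell by 0.75 with E2, TMEM192 rose by 0.65 with PPT, CD63 by 0.63 with PPT and 0.69 with DPN, and SCARB2 by 0.60 with DPN.

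For the 20 other proton pump genes, 3 rises (15.0%, against 30.8% of all tested genes) and 8 falls (40.0%, against 31.8%) passed with E2. PPT gave 6 rises (30.0%, against 22.9%) and 4 falls (where 22.8% of all tested genes fell), and DPN gave 8 rises (40.0%, against 24.4%) and 2 falls (10.0%, against 24.1%). ATP6V0B fell by 1.18 with E2, and ATP6V0E2 was lower with E2 (-0.87), PPT (-0.73) and DPN (-0.63). ATP6V0E1 rose by 0.67 with E2 and 0.60 with DPN and fell by 0.19 with PPT. ATP6V0A1 fell by 0.46 with E2 and rose by 0.67 with PPT and 0.67 with DPN, ATP6V0A2 rose by 1.16 with PPT, and ATP6V1C2 by 0.54 with DPN. ATP6V0A4, a rare subunit named after its values were seen, had the largest change of the list with E2, with 95 and 94 counts with E2, 0 and 4 with PPT and 5 and 12 with DPN, against 11 and 9 in Control cells (3.62 ± 0.50 with E2, adjusted p = 5.64e-07).

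Other genes of the autophagy machinery, 29 in all, passed as higher in 9 (31.0%) and lower in 9 (31.0%) with E2, near the 30.8% and 31.8% of all tested genes. With PPT, 13 rose (44.8%, against 22.9%) and 3 fell (10.3%, against 22.8%), and with DPN 13 rose (44.8%, against 24.4%) and 4 fell (13.8%, against 24.1%). MAP1LC3B2 fell by 1.42 and ATG3, which transfers LC3 to lipid, by 1.08 with E2, and WDR45B rose by 0.63. Reads may be split between MAP1LC3B2 and MAP1LC3B, so the fall of MAP1LC3B2 may not be separate from that of MAP1LC3B. WDR45 rose by 1.02 with PPT and 0.67 with DPN, VMP1 by 0.57 with DPN, and RB1CC1, a scaffold of the ULK complex, by 0.61 with E2 and by 0.58 with either selective agonist. Of genes named after their values were seen, ATG16L2, a paralogue of ATG16L1, had 42 and 72 counts with E2 against 15 and 12 in Control cells (2.45, adjusted p = 8.15e-05). ATG9B had 72 and 112 counts with PPT and 86 and 67 with DPN, against 33 and 20 in Control cells (1.87 and 1.59, adjusted p = 6.02e-05 and 4.14e-04).

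Of 12 autophagy receptors, 4 rose (33.3%, against 30.8% of all tested genes) and 6 fell (50.0%, against 31.8%) with E2. With PPT, 6 rose (50.0%, against 22.9%) and 5 fell (41.7%, against 22.8%), and with DPN 9 rose (75.0%, against 24.4%) and 2 fell (16.7%, against 24.1%). SQSTM1, the p62 receptor, had 499.9 and 475.6 CPM with E2, 1753 and 1671 with PPT and 1579 and 1647 with DPN, against 640.7 and 662.8 in Control cells. CCPG1, a receptor for turnover of the endoplasmic reticulum, had 39.8 and 39.9 CPM with E2, 254.4 and 282.4 with PPT and 254.4 and 249.8 with DPN, against 71.3 and 66.4. For both, the E2 libraries were the lowest and those of PPT and DPN above all Control libraries.

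SQSTM1 fell by 0.42 with E2 and rose by 1.39 with PPT and 1.31 with DPN (adjusted p = 1.1e-06, 1.99e-16 and 7.67e-16). CCPG1 fell by 0.79 with E2 and rose by 1.96 with PPT and 1.87 with DPN. The mitophagy receptors BNIP3 and BNIP3L rose with E2 (1.96 and 1.62), fell with PPT (-0.21 and -0.40) and rose with DPN (0.39 and 0.44). OPTN rose by 1.36 with E2, TAX1BP1 by 0.70 with DPN, and NCOA4 fell by 0.69 with PPT. The receptor RETREG1, also named after its values were seen, had 23 and 37 counts with DPN, against 3 and 3 in Control cells (adjusted p = 3.63e-04).

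Regulators of mTORC1 and TFEB, 28 genes, rose in 5 (17.9%, against 30.8% of all tested genes) and fell in 13 (46.4%, against 31.8%) with E2. PPT gave 12 rises (42.9%, against 22.9%) and 7 falls (25.0%, against 22.8%), and DPN 7 rises (25.0%) and 7 falls (25.0%), near the 24.4% and 24.1% of all tested genes. SESN2 and SESN3, sestrins that restrain mTORC1, were lower with E2 (-1.81 and -2.70). MTOR, the kinase of the complex, rose by 0.73 with PPT, and DDIT4, another inhibitor, fell by 0.87 with PPT and 1.26 with DPN. DEPP1 was higher with E2 (1.76), PPT (3.41) and DPN (2.65), and FLCN, which acts on the Rag GTPases, fell by 0.54 with DPN. Among 6 genes that sort hydrolases to the lysosome, 1 rose and 2 fell with E2 (16.7% and 33.3%, against 30.8% and 31.8%), 1 rose and 2 fell with PPT (16.7% and 33.3%, against 22.9% and 22.8%), and 2 rose and 1 fell with DPN (33.3% and 16.7%, against 24.4% and 24.1%). SORT1 rose by 0.53 and M6PR fell by 0.58 with E2, and SORT1 fell by 0.75 and IGF2R rose by 0.62 with PPT.

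**Figure D4:**
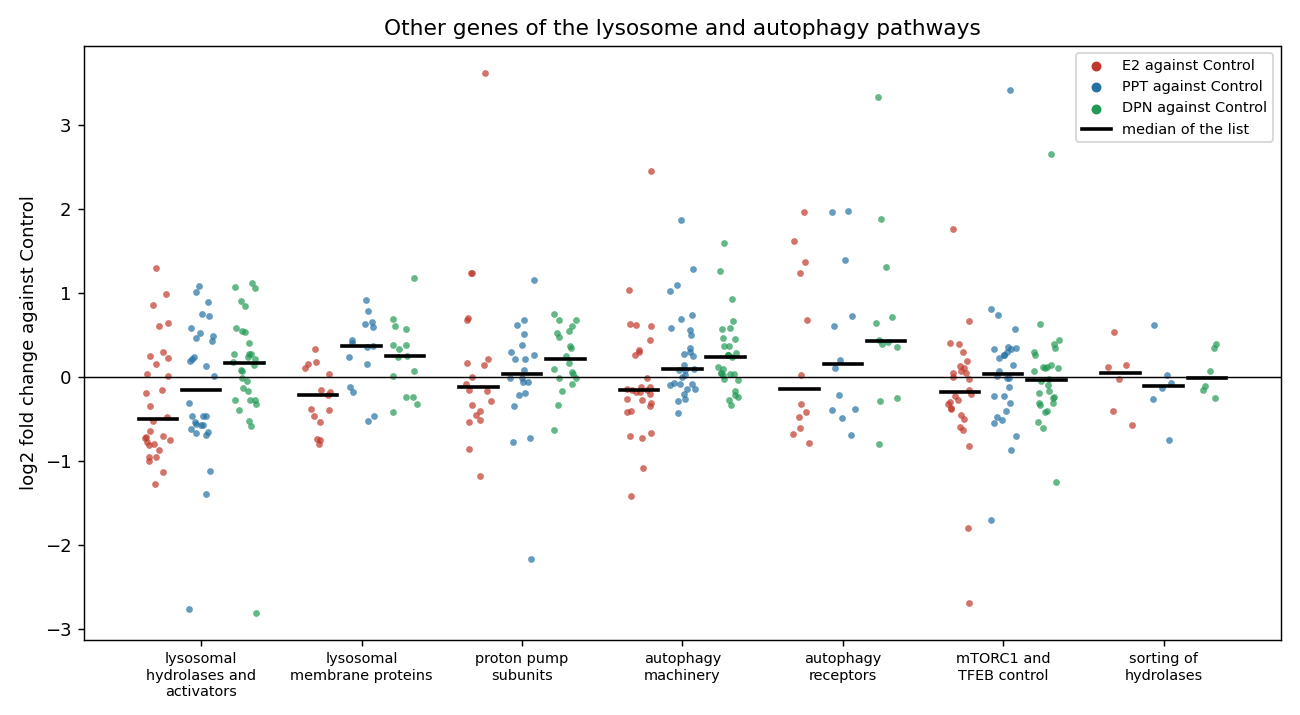
Log2 fold change against Control cells of the other lysosome and autophagy genes by list, 1 point per gene, with a line at the list's median for E2, PPT and DPN. The other hydrolases have their median at -0.50 with E2, and the autophagy receptors at 0.43 with DPN.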

How the data were processed

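RNA-seq of HepG2 cells was analysed from the raw read counts per Entrez gene that the authors deposited, 1 count per gene and library. The authors made strand-specific poly(A) libraries and aligned the reads to GRCh38.p10 with an Illumina pipeline, and their notes name DESeq2. The names of the aligner and the counter, and whether counting used the strand, are not given in the sources used here. The paper gives 3 replicates per group, and 2 libraries per group were analysed here. No reads were aligned anew, and members that share exon sequence with an antisense gene (CTSD with PRADX, ATP6V0D2 with a long noncoding RNA, CTSZ with NELFCD, GLA with RPL36A, WIPI1 with ARSG, BECN1 with CNTD1, ATG14 with FBXO34, ATG7 with VGLL4, CTSA with NEURL2, among others) or with a same-strand protein-coding gene (CTSD, GABARAP, HEXA, GLB1 and MCOLN1) are uncertain.

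Genes passing filterByExpr (minimum count 10, minimum total 15) were tested in edgeR 4.0.16 (R 4.3.3) with TMM scaling, in 1 fit of 8 libraries with group means, by the quasi-likelihood F test with Benjamini-Hochberg adjustment over 15460 genes. A second call used the thresholds of the study, a log2 fold change beyond 1.5 in either direction with adjusted p below 0.01. Intervals are 95%. The floor of 3 counts covers counting error only. Positions are from GENCODE on GRCh38, and the level per kilobase uses the union of exons. Simulated counts were used to test the edgeR fit of E2 against Control only, with changes placed in genes above a minimum mean count. Changes in rarer genes, the other comparisons and the motif search were not covered.

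Full values are given for members with an adjusted p under 0.05 and a log2 fold change of at least 1 in size with some compound, and for TFEB, TFE3 and MITF. Other pathway genes named are the up to 3 of each list with the smallest p per compound. Some genes under this rule are not reported here. A few further genes have values to show a contrast or a large change, chosen after their values were seen. The members and lists were chosen with earlier results of these data known. Alternatives were DESeq2 1.42.0, other scalings and filters, 4 libraries per fit, a replicate block and leaving out each library.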

Additional observations from a re-analysis of the deposited data

How the results depend on the processing

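The number of members past the test moved by over 1.5 times in few settings. With the stricter call, the members higher and lower were 2 and 2 for E2 against Control, 2 and 0 for PPT, 2 and 0 for DPN, 2 and 4 for E2 against PPT, 3 and 3 for E2 against DPN, and 0 and 0 for DPN against PPT. Scaling by library size alone moved the median log2 fold change of all tested genes to -0.23 for E2 against Control, where TMM gave -0.0041, and it left 9 members higher with E2 than with DPN, where TMM gave 14. Under the same scaling 7 small values changed sign among those that passed with at least 1 of the 2 scalings. They were BECN1 for E2 against Control (-0.21), and GABARAP (-0.0615), GAA (-0.17), NPC1 (-0.0492) and ATG16L1 (-0.19) for E2 against PPT. For E2 against DPN they were GABARAP (-0.0356) and ATG16L1 (-0.0380). Here and below, sign changes of values that passed in neither setting were not counted. Of the fits that left out 1 library, the one without E2 replicate 1 had the fewest members higher with E2 than with DPN. The one without DPN replicate 1 had the fewest members lower with DPN than with PPT. In both fits a smaller share of all tested genes passed as well. Replicate numbers did not pair the libraries (correlation of deviations -0.0645 to 0.0233), and with the replicate block 12 members were higher and 19 lower with E2, 16 and 10 with PPT, and 14 and 10 with DPN than in Control cells, with 0 reversed and 5 single results no longer past the threshold. DESeq2 ended 8 single calls. CTSS no longer differed between E2 and DPN past the threshold without E2 replicate 2 (adjusted p = 0.119) or DPN replicate 2 (0.0969). For CTSB, CTSL, LAMP3, TFEB, TFE3, ATP6V0D2 and MAP1LC3B no call changed in any setting that tested the gene, apart from the stricter call. MITF passed in no comparison in any setting that tested it. With 2 libraries per group, changes of rare genes such as CTSZ and ULK2 are at the limit of what these counts can show.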
